A study of Homo sapiens with 18 samples.

Results

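The mTORC1 kinase complex and its stress-induced inhibitors were followed here through 10 genes, matched by symbol in a table of 55128 genes. They are DDIT4, SESN1, SESN2 and SESN3, which restrain mTORC1 under stress, TSC1 and TSC2 of the tuberous sclerosis complex, the GTPase gene RHEB, and MTOR, RPTOR and AKT1S1, which encode subunits of the complex. RNA was sequenced from T98G cells, an established human glioblastoma line, after 2 h under 6 treatments, with biological replicates A, B and C of each. Cells received the solvent DMSO, gnetin H (GH, a stilbene from Paeonia seeds) at 8 µM, phenformin (Phen, an inhibitor of mitochondrial complex I) at 100 µM, 2-deoxyglucose (2DG, a glucose analogue that blocks glycolysis) at 10 mM, GH+Phen and 2DG+Phen, with each agent in a combination at its single dose. The 10 mM dose of 2DG is that of the labels and the methods, and another passage of the study names a higher one. The cells of all 6 groups are 1 line at 1 time point, and in bulk RNA fewer cells of a kind and less RNA per cell cannot be told apart. All values below are RNA levels, and neither mTORC1 activity nor protein was measured in these libraries.

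mTORC1 is a protein kinase complex at the lysosome that drives protein and lipid synthesis when amino acids, growth factors and energy suffice. RHEB in its GTP-bound form activates the kinase, and the TSC1-TSC2 complex, a GTPase activator, switches RHEB off. Cells short of glucose, oxygen or amino acids transcribe DDIT4, whose product REDD1 acts through TSC1-TSC2, and the sestrins, which block the amino acid branch through GATOR2. ATF4, the transcription factor of the integrated stress response, is known to drive DDIT4 and SESN2, and HIF-1 is known to drive DDIT4 under hypoxia. In glioblastoma, mTORC1 is commonly active downstream of growth factor receptors.

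The promoters of the inducible genes are shown because the comparisons below turn on DDIT4 and SESN2, which moved together with 2DG and apart with 2DG+Phen. RefSeq promoter windows (build GRCh38.p14, 250 bases before to 50 after a start site) were found for 9 of the 10 genes, all but AKT1S1. The motifs searched on both strands were TGATGNAA, the composite element of C/EBP and ATF factors to which ATF4 can bind, and ACGTG and GCGTG, the cores of the hypoxia response element. The sequences are the 250 bases before the start, 5′ to 3′, with every match in capitals.
DDIT4, chr10:72273674-72273923, plus strand: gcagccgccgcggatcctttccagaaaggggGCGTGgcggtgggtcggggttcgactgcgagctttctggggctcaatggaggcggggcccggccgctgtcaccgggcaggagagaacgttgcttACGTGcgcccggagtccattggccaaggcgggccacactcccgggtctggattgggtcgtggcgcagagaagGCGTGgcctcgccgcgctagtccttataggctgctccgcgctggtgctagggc
SESN2, chr1:28259268-28259517, plus strand: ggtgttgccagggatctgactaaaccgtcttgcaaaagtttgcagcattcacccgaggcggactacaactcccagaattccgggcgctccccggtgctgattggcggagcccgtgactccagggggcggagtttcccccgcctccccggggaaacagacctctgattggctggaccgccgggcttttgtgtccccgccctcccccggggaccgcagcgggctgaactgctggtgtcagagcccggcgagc
SESN1, chr6:109094847-109095096, minus strand: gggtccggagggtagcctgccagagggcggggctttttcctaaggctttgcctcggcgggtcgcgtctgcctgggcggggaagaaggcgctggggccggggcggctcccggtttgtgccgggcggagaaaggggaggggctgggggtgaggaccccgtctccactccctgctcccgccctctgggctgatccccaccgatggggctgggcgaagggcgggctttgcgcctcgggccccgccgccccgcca
SESN3, chr11:95232476-95232725, minus strand: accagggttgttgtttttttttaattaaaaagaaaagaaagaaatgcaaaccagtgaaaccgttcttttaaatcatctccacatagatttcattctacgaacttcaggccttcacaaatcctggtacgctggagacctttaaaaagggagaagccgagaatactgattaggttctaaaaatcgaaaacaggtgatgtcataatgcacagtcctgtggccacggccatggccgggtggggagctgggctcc
TSC2, chr16:2047735-2047984, plus strand: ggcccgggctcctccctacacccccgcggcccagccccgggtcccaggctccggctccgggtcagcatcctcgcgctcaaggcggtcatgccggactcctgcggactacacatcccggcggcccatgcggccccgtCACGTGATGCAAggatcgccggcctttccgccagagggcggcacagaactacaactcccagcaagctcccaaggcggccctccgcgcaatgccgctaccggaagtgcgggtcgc
The SESN1 window is the one at the start of the deposited gene, and the TSC2 window was added after its match had been seen. In the DDIT4 window the capitals mark ACGTG 125 to 121 bases before the start, and GCGTG at 219 to 215 and at 53 to 49 bases before it, with a further GCGTG in the 50 bases after the start that are not printed. The SESN2 and SESN3 windows and this SESN1 window hold none of the 3 motifs. Of the 2 other SESN1 windows of the table, not printed here, 1 holds a GCGTG 82 to 78 bases before its start. In the TSC2 window TGATGCAA lies 110 to 103 bases before the start and shares 2 bases with an ACGTG, which itself overlaps an ACGTG read on the other strand. Among the windows not printed, counted on both strands, that of RHEB holds 1 ACGTG, that of MTOR 1 GCGTG and that of RPTOR 2 GCGTG. The TSC1 window and a second TSC2 window, also not printed, hold none of the 3 motifs. Of all 35116 windows of the table, 3.62% hold TGATGNAA, 21.4% hold ACGTG, 36.5% hold GCGTG and 48.4% hold either core. A match describes the letters of a window and was not tested for binding. Only these windows were searched, so a window without a match does not speak to sites elsewhere in or near a gene.

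The libraries held 18417756 to 22497604 mapped fragments, and each gene has 1 FPKM value per library, its fragments scaled by exon length and by the mapped fragments of the library. Relative to the mean of each gene over the 18 libraries, log2 levels rose or fell with GC content to a different degree in each library. The slopes of these deviations ran from -0.36 to 0.31 on the log2 scale per 10 percentage points of GC. The slope differed between treatments too. It ran from 0.13 to 0.29 in the 2DG libraries, from 0.081 to 0.31 in 2DG+Phen and from -0.36 to -0.21 in Phen. A GC trend of the libraries and a change of GC-rich genes with treatment therefore cannot be told apart, with or without a correction. Within groups, DMSO C and GH+Phen A stood furthest apart on this slope. DMSO C had 0.047 where the other DMSO libraries had -0.30 and -0.23, and GH+Phen A had -0.19 where the other GH+Phen libraries both had 0.23. The genes DDIT4, SESN2, TSC2, RPTOR and AKT1S1 have GC contents from 59.6% to 62.0%. Each result for the genes followed here is therefore given as deposited, and a correction of each library for GC content and length was also run. The corrected value is given wherever it ends a call, turns its direction or moves it by over 1.5 times. Mitochondrial transcripts took 4.81% to 5.71% of the DMSO libraries and 3.08% to 3.94% of the combination libraries. VIM, CD44 and FN1, which mark mesenchymal glioblastoma lines, were at 52 FPKM or more in every library, GFAP, S100B and NES were below the level needed for testing, and so were the 6 markers of blood, epithelial, endothelial, neuronal and oligodendrocyte cells.

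RHEB was the most abundant of the 10 genes in DMSO, at 70.7 ± 5.61 FPKM (mean ± SD, n = 3, as in all such values), followed by DDIT4 at 23.9 ± 3.08, MTOR at 7.94 ± 0.859 and AKT1S1 at 7.33 ± 1.36. TSC1 stood at 4.73 ± 0.216, RPTOR at 3.07 ± 0.756, SESN1 at 1.97 ± 0.279, SESN2 at 1.45 ± 0.223 and TSC2 at 1.15 ± 0.241 FPKM. SESN3 lay lowest, at 0.236 ± 0.0185, and was the only gene of the 10 below the minimum for testing, 0.5 FPKM in at least 3 libraries. The ratio of the highest to the lowest group mean was 5.11 for DDIT4 and 4.74 for SESN2, the 2 inducible inhibitors, 1.91 for SESN1 and 2.13 for TSC2, and 1.13 for RHEB and 1.20 for MTOR. It was 1.84 for SESN3, 1.63 for RPTOR, 1.56 for TSC1 and 1.45 for AKT1S1. DDIT4 and SESN2 therefore spanned the widest ranges between groups of the 10 genes, as deposited.

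**Figure D1:**
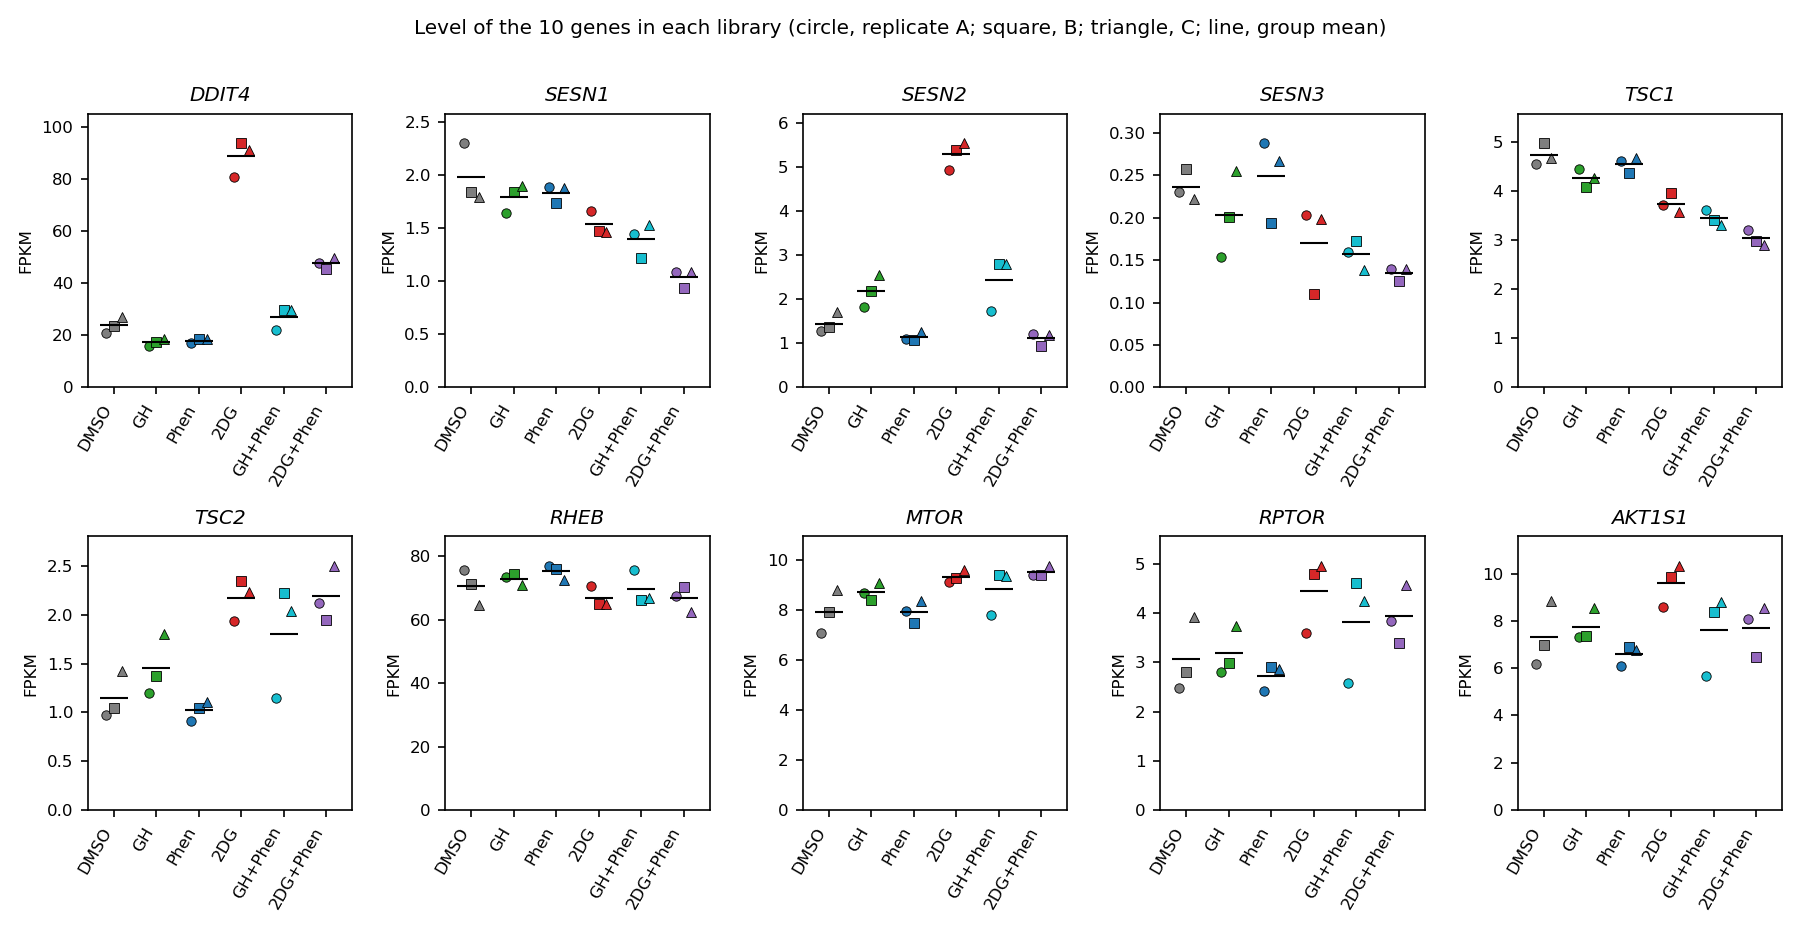
FPKM of the 10 genes (vertical axes, from 0) in the 6 groups (horizontal axes), with 1 point for each of the 3 libraries and a line at the group mean. DDIT4 and SESN2 are highest in 2DG, at means of 88.7 and 5.28, and with 2DG+Phen DDIT4 stays at 47.7 while SESN2 is at 1.11.

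DDIT4 encodes REDD1, which acts through TSC1-TSC2 to hold mTORC1 back (ENSG00000168209, chromosome 10, 72273920 to 72276036, plus strand, GRCh38, 2058 b of exon). The DMSO libraries A, B and C measured 20.9, 23.7 and 27.0 FPKM, and the 2DG libraries 81.0, 93.8 and 91.4. Every 2DG library was above every DMSO library, and DDIT4 rose by 1.89 on the log2(FPKM + 0.1) scale (standard error 0.11, 95% interval 1.66 to 2.13, adjusted p = 2.4e-08, limma), a 3.72-fold ratio of the means. It remained past the threshold under all 31 alternatives tried, with a change of 1.32 after the GC and length correction. With 2DG+Phen the libraries measured 47.9, 45.6 and 49.7 FPKM, between the DMSO and the 2DG libraries without touching either. DDIT4 was thus 1.0 above DMSO (standard error 0.11, adjusted p = 6.5e-06; 0.54 after the correction) and fell by 0.89 against 2DG (adjusted p = 7.3e-05).

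DDIT4 moved the other way with GH, and with Phen it was called only under some settings. The GH libraries measured 15.9, 17.5 and 18.7 FPKM and the Phen libraries 17, 18.4 and 18.6, and both sets lay below the 3 DMSO libraries. DDIT4 fell by 0.45 with GH (standard error 0.11, adjusted p = 0.026), a call that was lost without any 1 of DMSO B, DMSO C, GH A and GH B, with adjusted p up to 0.11. With Phen the change was -0.40 (adjusted p = 0.17; -0.15 and adjusted p = 0.34 after the GC correction), and the same change passed the threshold without GH+Phen A (adjusted p = 0.040) and with the replicate letter as a block (adjusted p = 0.018). The GH+Phen libraries measured 22.1, 29.8 and 29.7 FPKM, and GH+Phen A lay among the DMSO values while the others lay above them. Against DMSO the change was 0.18 (adjusted p = 0.21), and without GH+Phen A it was 0.33 (adjusted p = 0.011), while the GC correction gave -0.17 (adjusted p = 0.11). Every GH+Phen library exceeded every GH library, and DDIT4 rose by 0.64 against GH (adjusted p = 0.0018; 0.41 after the correction). That call was lost in a fit on only the groups compared (adjusted p = 0.085). Against Phen DDIT4 rose by 0.58 (adjusted p = 0.0015), and this rise was absent after the GC correction, at -0.02 (adjusted p = 0.90). In order of mean level the groups ran 2DG, 2DG+Phen, GH+Phen, DMSO, Phen and GH, and of these neighbours only 2DG and 2DG+Phen, and 2DG+Phen and GH+Phen, differed past the threshold.

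SESN2 encodes the stress-inducible sestrin that senses leucine and holds back GATOR2 (ENSG00000130766, chromosome 1, 28259527 to 28282491, plus strand). The DMSO libraries measured 1.28, 1.36 and 1.70 FPKM, and the 2DG libraries 4.93, 5.37 and 5.53. All 2DG libraries lay above all DMSO libraries, and SESN2 rose by 1.80 (standard error 0.17, 95% interval 1.44 to 2.17, adjusted p = 3.9e-06), a 3.64-fold ratio of the means that kept its call under all 31 alternatives and was 1.22 after the GC correction. With 2DG+Phen the libraries measured 1.21, 0.948 and 1.18 FPKM, all below the DMSO libraries. SESN2 therefore fell by 2.15 against 2DG (standard error 0.17, adjusted p = 1.0e-06), and it stood 0.35 below DMSO on the log2 scale as deposited (log2 change -0.35, adjusted p = 0.093) and fell by 0.81 after the GC correction (adjusted p = 2.2e-07). With 2DG+Phen SESN2 thus had the lowest of its 6 group means, while DDIT4 in the same libraries stayed above all groups but 2DG.

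GH and GH+Phen gave SESN2 values between DMSO and 2DG. The GH libraries measured 1.82, 2.19 and 2.55 FPKM, above every DMSO library, at a change of 0.56 (standard error 0.17, adjusted p = 0.069; 0.44 and adjusted p = 0.00052 after the GC correction, and adjusted p = 0.044 without DMSO C). The Phen libraries measured 1.10, 1.08 and 1.25 FPKM, below every DMSO library, with a change of -0.31 (adjusted p = 0.55). The GH+Phen libraries measured 1.72, 2.81 and 2.80 FPKM, and SESN2 rose by 0.69 against DMSO (standard error 0.17, adjusted p = 0.0076; 0.35 after the correction) and by 1.0 against Phen (adjusted p = 0.00066; 0.45 after the correction). GH+Phen A was the lowest of its group here too, and without it the rise against DMSO was 0.92. The change from GH to GH+Phen was 0.13 (adjusted p = 0.62). By mean level the groups ran 2DG, GH+Phen, GH, DMSO, Phen and 2DG+Phen, and only the first pair of neighbours differed past the threshold.

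SESN1, another stress-responsive sestrin (chromosome 6, 108986437 to 109094819, minus strand), fell with 2DG, where SESN2 rose, and had its lowest levels with 2DG+Phen, as SESN2 did. The DMSO libraries measured 2.30, 1.84 and 1.79 FPKM and the 2DG libraries 1.66, 1.48 and 1.47, a fall by 0.34 (standard error 0.11, adjusted p = 0.017) that was not called after the GC correction (-0.12, adjusted p = 0.36) or without any 1 of DMSO A, 2DG B and 2DG C (adjusted p up to 0.099). The 2DG+Phen libraries, at 1.09, 0.936 and 1.08 FPKM, were below every library of the 5 other groups. SESN1 fell there by 0.86 against DMSO (standard error 0.11, adjusted p = 1.9e-05; 0.60 after the correction) and by 0.52 against 2DG (adjusted p = 0.0044). With GH+Phen, at 1.44, 1.22 and 1.52 FPKM, it fell by 0.47 against DMSO (adjusted p = 0.0048), and with GH alone and Phen alone the changes were -0.13 (adjusted p = 0.63) and -0.10 (adjusted p = 0.72). SESN3, the third sestrin (chromosome 11, 95165513 to 95232541, minus strand), was counted by 23 to 56 fragments a library and was not tested. Its levels ran from 0.110 to 0.287 FPKM, and the 3 libraries of 2DG, of GH+Phen and of 2DG+Phen each lay below the 3 of DMSO, with means of 0.171, 0.157 and 0.135 FPKM.

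TSC1 encodes hamartin, the scaffold of the tuberous sclerosis complex (chromosome 9, 132891348 to 132944633, minus strand), and fell wherever 2DG or a combination was given. The DMSO libraries measured 4.55, 4.97 and 4.68 FPKM, the 2DG libraries 3.71, 3.96 and 3.57, the GH+Phen libraries 3.61, 3.41 and 3.32 and the 2DG+Phen libraries 3.21, 2.99 and 2.91. None of the 9 treated libraries reached the DMSO range. The falls against DMSO were by 0.33 with 2DG (standard error 0.059, adjusted p = 7.0e-04), by 0.45 with GH+Phen (adjusted p = 7.7e-05) and by 0.62 with 2DG+Phen (adjusted p = 1.4e-06), and all 3 were called under every alternative tried. After the GC correction they were -0.31, -0.44 and -0.58, the steadiest values of the set. TSC1 also fell by 0.30 from GH to GH+Phen (adjusted p = 0.0040), a call lost in a fit on only the groups compared (adjusted p = 0.12). From 2DG to 2DG+Phen TSC1 fell by 0.29 (adjusted p = 0.0038, not called with quantile normalization). GH alone gave -0.15 (adjusted p = 0.19; -0.19 and adjusted p = 0.022 after the correction) and Phen alone -0.05 (adjusted p = 0.72).

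TSC2 encodes tuberin, the GTPase-activating subunit of the same complex (chromosome 16, 2047465 to 2088720, plus strand), and its deposited levels moved opposite to TSC1. The DMSO libraries measured 0.978, 1.05 and 1.42 FPKM, the 2DG libraries 1.94, 2.34 and 2.24, and the 2DG+Phen libraries 2.12, 1.94 and 2.50. All 6 libraries with 2DG exceeded the DMSO libraries, and TSC2 rose by 0.87 with 2DG (standard error 0.21, adjusted p = 0.0046) and by 0.88 with 2DG+Phen (adjusted p = 0.0035). TSC2 has the highest GC content of the 10 genes, 62.0%. After the GC correction the change with 2DG was 0.10 (adjusted p = 0.23) and the call ended, while that with 2DG+Phen was 0.24 and kept it (adjusted p = 0.0053). With GH+Phen the libraries measured 1.15, 2.22 and 2.04 FPKM, a change of 0.57 against DMSO (adjusted p = 0.055) that became 0.85 without GH+Phen A (adjusted p = 0.0016) and 0.06 after the GC correction (adjusted p = 0.44). Library C of DMSO and library A of GH+Phen, the ones apart in GC slope, were the highest of DMSO and the lowest of GH+Phen. The part of the GC slope in the TSC2 changes was not tested beyond this correction.

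RHEB, the small GTPase that turns mTORC1 on (chromosome 7, 151466012 to 151520120, minus strand), held within a narrow band. Its libraries ran from 64.7 to 75.9 FPKM in DMSO, from 64.9 to 70.8 in 2DG, from 71.0 to 74.4 in GH, from 72.6 to 77.1 in Phen, from 66.3 to 75.8 in GH+Phen and from 62.3 to 70.3 in 2DG+Phen. Each treatment overlapped DMSO, and the log2 changes against DMSO were between -0.08 and 0.09, with adjusted p from 0.29 to 0.82. For 2DG the 95% interval of the change was -0.21 to 0.06. The single call among the main comparisons was a fall by 0.17 in 2DG+Phen against Phen (adjusted p = 0.028), and it ended after the GC correction (adjusted p = 0.088).

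MTOR, the kinase itself (chromosome 1, 11106535 to 11262507, minus strand), rose slightly in both groups with 2DG. The DMSO libraries measured 7.08, 7.95 and 8.80 FPKM, the 2DG libraries 9.14, 9.29 and 9.63 and the 2DG+Phen libraries 9.43, 9.41 and 9.78. All 6 libraries with 2DG lay above DMSO, and MTOR rose by 0.24 with 2DG (standard error 0.078, adjusted p = 0.020; 0.10 and adjusted p = 0.037 after the correction) and by 0.27 with 2DG+Phen (adjusted p = 0.012; 0.17 and adjusted p = 0.0011). The first call was lost without DMSO A, DMSO B, 2DG B or 2DG C, and the second without DMSO A, with adjusted p = 0.073. The changes with GH, Phen and GH+Phen were 0.14, 0.00 and 0.16, with adjusted p of 0.40, 0.98 and 0.14.

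RPTOR and AKT1S1 encode the mTORC1 scaffold Raptor and the inhibitory subunit PRAS40, and for both the direction in 2DG turned with the processing. RPTOR (chromosome 17, 80544819 to 80966371, plus strand) measured 2.48, 2.81 and 3.92 FPKM in DMSO and 3.60, 4.80 and 4.96 in 2DG. The groups overlapped through DMSO C, and the rise by 0.54 (standard error 0.21, adjusted p = 0.043), lost without any 1 of 8 of the 18 libraries, became -0.10 after the GC correction (adjusted p = 0.13). AKT1S1 (chromosome 19, 49869033 to 49878459, minus strand) measured 6.17, 7.0 and 8.83 FPKM in DMSO and 8.58, 9.87 and 10.3 in 2DG. It also overlapped through DMSO C, and its rise by 0.39 (standard error 0.16, adjusted p = 0.049), lost without any 1 of 12 libraries, turned into a fall by 0.25 after the GC correction (adjusted p = 0.0021). With 2DG+Phen the AKT1S1 libraries were at 6.47 to 8.53 FPKM and the change was 0.08 as deposited (adjusted p = 0.70) and -0.43 after the correction (adjusted p = 8.3e-06). For both genes the deposited and the corrected values thus give opposite directions, and neither was checked by another method.

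**Figure D2:**
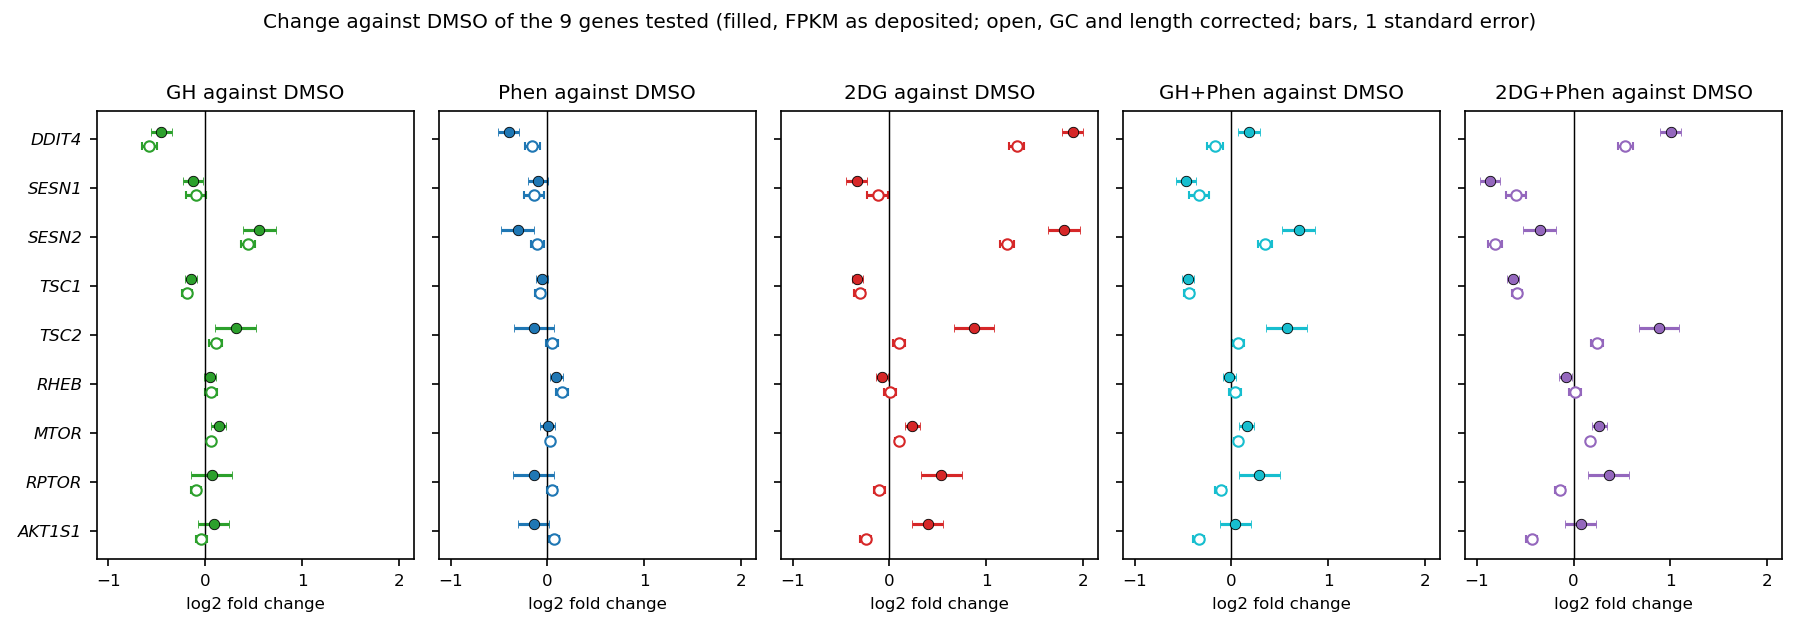
Log2 fold change against DMSO (horizontal axes) of the 9 genes tested (vertical axis) for each treatment, with filled points for FPKM as deposited, open points after the GC and length correction, and bars of 1 standard error. With 2DG the points of DDIT4 (1.89 and 1.32), SESN2 (1.80 and 1.22) and TSC1 (-0.33 and -0.31) stay on 1 side of 0, while AKT1S1 lies at 0.39 as deposited and at -0.25 after the correction.

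Counted over the 9 genes tested, 2DG against DMSO had the most calls, with 6 genes that rose (DDIT4, SESN2, TSC2, MTOR, RPTOR and AKT1S1) and 2 that fell (SESN1 and TSC1), where 24.7% of all 12108 genes tested rose and 30.3% fell. After the GC correction 3 rose (DDIT4, SESN2 and MTOR) and 2 fell (TSC1 and AKT1S1), against 23.3% and 20.9% of the genes. With 2DG+Phen 3 rose (DDIT4, TSC2 and MTOR) and 2 fell (SESN1 and TSC1), at a background of 21.1% and 32.8%, and after the correction the same 3 rose while 5 fell (SESN1, SESN2, TSC1, RPTOR and AKT1S1), at 28.0% and 22.6%. With GH+Phen SESN2 rose and SESN1 and TSC1 fell, with 9.40% of all genes rising and 18.6% falling, and after the correction AKT1S1 joined those that fell, at 20.3% and 17.7%. Calls were that common over all genes, so the counts are no result about these genes. With 2DG the sizes of the changes set DDIT4 and SESN2 apart within the 9. With 2DG+Phen they did not, since TSC2 (0.88) and SESN1 (-0.86) lay near DDIT4 (1.0) and SESN2 was at -0.35. With GH+Phen DDIT4 was at 0.18, nearer to 0 than SESN1 (-0.47) and TSC1 (-0.45). GH alone called 1 of 9, the fall of DDIT4, where 2.29% of all genes rose and 3.63% fell. Phen alone called 0 of 9 by limma with and without its trend, with 0.339% and 0.206% of all genes rising and falling, and DDIT4 was the 1 gene at an unadjusted p under 0.05. These 5 comparisons share the DMSO libraries. A fit on only the groups compared, with fewer residual degrees of freedom, lost 14 calls in all, among them the falls of DDIT4 with GH and of SESN1 with 2DG and GH+Phen, the rise of SESN2 with GH+Phen, and those of MTOR, RPTOR and AKT1S1 with 2DG.

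The combinations were also set against their single agents. For 2DG+Phen against 2DG no gene of the 9 rose and 4 fell (DDIT4, SESN1, SESN2 and TSC1), with 3.53% and 7.69% of all genes rising and falling, and 4 were at an unadjusted p under 0.05. For GH+Phen against GH, DDIT4 rose and SESN1 and TSC1 fell, at 3.30% and 9.22%. The Phen comparisons had a wide background, with 23.5% and 24.2% for GH+Phen against Phen, where DDIT4, SESN2 and TSC2 rose and SESN1 and TSC1 fell, and 29.2% and 36.2% for 2DG+Phen against Phen, where DDIT4, TSC2, MTOR and RPTOR rose and SESN1, TSC1 and RHEB fell. After the GC correction the calls of DDIT4, TSC2 and SESN1 in GH+Phen against Phen ended, that of SESN1 in GH+Phen against GH (adjusted p = 0.048) ended too, and RPTOR in 2DG+Phen against Phen turned from 0.50 to -0.19 (adjusted p = 0.0085). In 2DG+Phen against Phen the correction also took DDIT4 from 1.40 to 0.69, TSC2 from 1.02 to 0.19 and MTOR from 0.26 to 0.14. SESN1 went from -0.77 to -0.46 there, and these genes kept their calls. SESN2 stood at -0.04 in 2DG+Phen against Phen (adjusted p = 0.83) and fell by 0.71 after the correction (adjusted p = 1.1e-06), and AKT1S1, called in none of these comparisons as deposited, fell after it in all 4 comparisons of a combination with its single agents. Between the combinations, SESN2 and SESN1 were higher and DDIT4 lower in GH+Phen than in 2DG+Phen, at a background of 8.33% and 2.16%. The SESN2 difference was 1.04 (standard error 0.17, adjusted p = 0.0010) and the DDIT4 difference -0.82 (adjusted p = 0.00021), and both were past the threshold after the GC correction, at 1.16 and -0.71. The SESN1 difference of 0.39 (adjusted p = 0.029) was not, at 0.26 (adjusted p = 0.10), nor without any 1 of GH+Phen A, GH+Phen C and the 3 libraries of 2DG+Phen. In the fit on only the groups compared, the SESN2 difference lost its call (adjusted p = 0.089) and the DDIT4 difference kept it.

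Whether a combination differed from the sum of its single agents was tested with an interaction term on the log2 scale. For SESN2 the changes with 2DG and Phen sum to 1.5 and the change with 2DG+Phen was -0.35, so the interaction was -1.85 (standard error 0.24, 95% interval -2.36 to -1.33, adjusted p = 0.00033), and it stayed past the threshold under all 31 alternatives, at -1.93 after the GC correction. It was the only gene of the 9 called for 2DG and Phen, where 1.38% of all genes had a positive and 3.59% a negative interaction. DDIT4 gave -0.49 in the same test (adjusted p = 0.092), which passed the threshold after the GC correction (-0.63, adjusted p = 0.0016) and without GH+Phen A (adjusted p = 0.020). For GH and Phen DDIT4 was the only gene called, at a background of 1.45% positive and 3.73% negative. Its single changes sum to -0.85 and the change with GH+Phen was 0.18, an interaction of 1.03 (standard error 0.16, 95% interval 0.70 to 1.37, adjusted p = 0.0019) that passed under all 31 alternatives and was 0.56 after the GC correction. Without GH+Phen A 5 genes were called in this test, DDIT4, SESN2, TSC1, TSC2 and RHEB. The share of all genes called in that fit is not given here, and the shares above, from all 18 libraries, do not apply to it. AKT1S1 was called in both interactions after the GC correction, at -0.37 (adjusted p = 0.0054) for GH and -0.26 (adjusted p = 0.033) for 2DG.

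**Figure D3:**
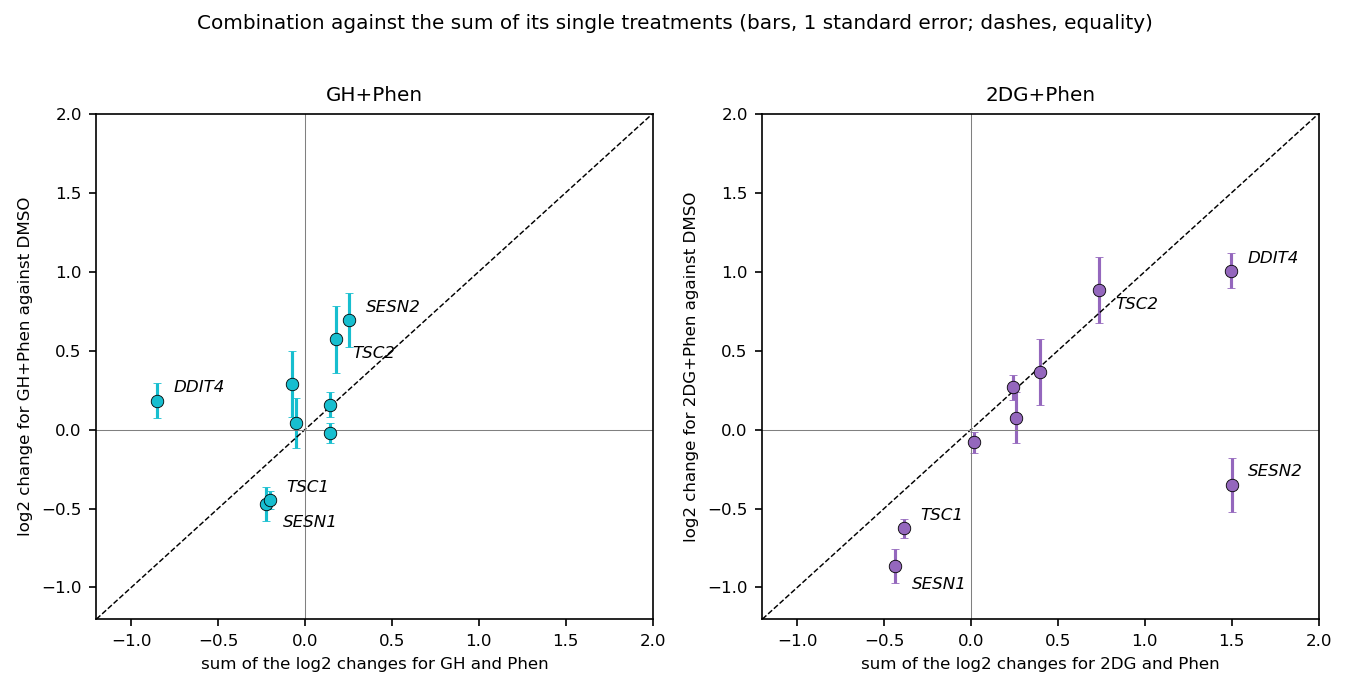
Change of the 9 genes tested with GH+Phen (left) or 2DG+Phen (right) against DMSO (vertical axes, log2, bars of 1 standard error) beside the sum of the changes with the single agents (horizontal axes, log2), with dashes where both are equal. SESN2 lies far below the dashes for 2DG+Phen, at -0.35 beside a sum of 1.5, and DDIT4 above them for GH+Phen, at 0.18 beside a sum of -0.85.

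The wider pathway was read from 6 lists with 56 genes besides the 10, of which 48 were tested. With 2DG 20 of the 48 rose and 8 fell, with 2DG+Phen 14 rose and 14 fell, with GH+Phen 3 rose and 8 fell, and with GH 3 rose, while with Phen 0 were called and 3 were at an unadjusted p under 0.05. Over all genes tested 24.7% rose and 30.3% fell with 2DG, 21.1% and 32.8% with 2DG+Phen, 9.40% and 18.6% with GH+Phen and 2.29% and 3.63% with GH, and the counts of each list below are to be read against these shares. After the GC correction the counts of the 48 were 15 and 9 with 2DG, 15 and 13 with 2DG+Phen, 13 and 9 with GH+Phen, 7 and 4 with GH and 1 and 1 with Phen. The shares of all genes were then 23.3% and 20.9% with 2DG, 28.0% and 22.6% with 2DG+Phen, 20.3% and 17.7% with GH+Phen, 7.54% and 7.92% with GH and 2.62% and 0.832% with Phen. The median change of the 48 with 2DG was 0.08, beside -0.05 over all genes, and both medians were within 0.1 of 0 in each comparison with DMSO but GH, where the 48 had 0.11 and all genes 0.01.

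Among the substrates and effectors of mTORC1, EIF4EBP2, a repressor of cap-dependent translation, and PDCD4, an inhibitor of the helicase eIF4A, fell with 2DG and both combinations. EIF4EBP2 fell by 0.55 with 2DG (standard error 0.058, adjusted p = 9.0e-06), by 0.71 with GH+Phen and by 0.94 with 2DG+Phen, and PDCD4 by 0.74, 0.66 and 1.08. EIF4EBP1, the better known repressor of the family, went the other way in 2DG, with a rise by 1.32 (adjusted p = 0.0098; 0.56 after the correction), and in 2DG+Phen, with a rise by 1.21. Of the 9 list members tested, 3 rose and 2 fell with 2DG (3 and 3 after the correction), and 3 rose and 4 fell with 2DG+Phen (1 and 4), beside 24.7% and 30.3%, and 21.1% and 32.8%, of all genes. RHEBL1, the relative of RHEB, was high with 2DG and low with 2DG+Phen, as SESN2 was. Its mean was 1.13 FPKM in DMSO, 1.70 in 2DG and 0.577 in 2DG+Phen, so it rose by 0.55 with 2DG (adjusted p = 0.0098; 0.31 and adjusted p = 0.12 after the correction) and fell by 0.88 with 2DG+Phen (adjusted p = 0.00034).

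Of the 12 Rag and Ragulator genes tested, 5 rose and 3 fell with 2DG (6 and 2 after the correction), beside 24.7% and 30.3% of all genes. FLCN, which encodes folliculin, the GTPase activator of RagC, rose by 0.80 (standard error 0.11, adjusted p = 0.00012) and its level with 2DG+Phen was lower than with 2DG by a change of -0.70 (adjusted p = 0.00076). With GH, FNIP2, FNIP1 and RRAGC rose, by 0.35, 0.29 and 0.29, and these are the partners of folliculin and the GTPase it acts on. SLC38A9, the lysosomal arginine sensor, fell by 0.57 with 2DG, by 0.52 with GH+Phen and by 0.80 with 2DG+Phen (adjusted p = 6.5e-06). Of the 13 genes of GATOR, KICSTOR and the amino acid sensors, the branch on which sestrins act, 6 rose and 2 fell with 2DG, and after the correction 3 and 1, with the list's median change going from 0.39 to 0.11. With 2DG+Phen 5 of the 13 rose and 0 fell, also after the correction, beside 21.1% and 32.8% of all genes, and ITFG2, a KICSTOR subunit, gave 0.55 with 2DG and 0.52 with 2DG+Phen. DEPDC5, the GATOR1 subunit, rose by 0.47 with GH+Phen and by 0.39 with 2DG+Phen. Of the 8 upstream kinases and phosphatases tested, 4 rose and 0 fell with 2DG, and after the correction 2 rose and 2 fell. TRIB3, a pseudokinase that binds AKT and is a CHOP target, rose by 0.79 (adjusted p = 2.1e-05), which was 0.09 after the GC correction (adjusted p = 0.61). MAPKAP1, the mTORC2 subunit SIN1, fell by 0.13 with 2DG, by 0.23 with GH+Phen and by 0.36 with 2DG+Phen, and MLST8, shared by both complexes, rose by 1.57 with 2DG (standard error 0.44, adjusted p = 0.010; 0.69 after the correction).

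**Figure D4:**
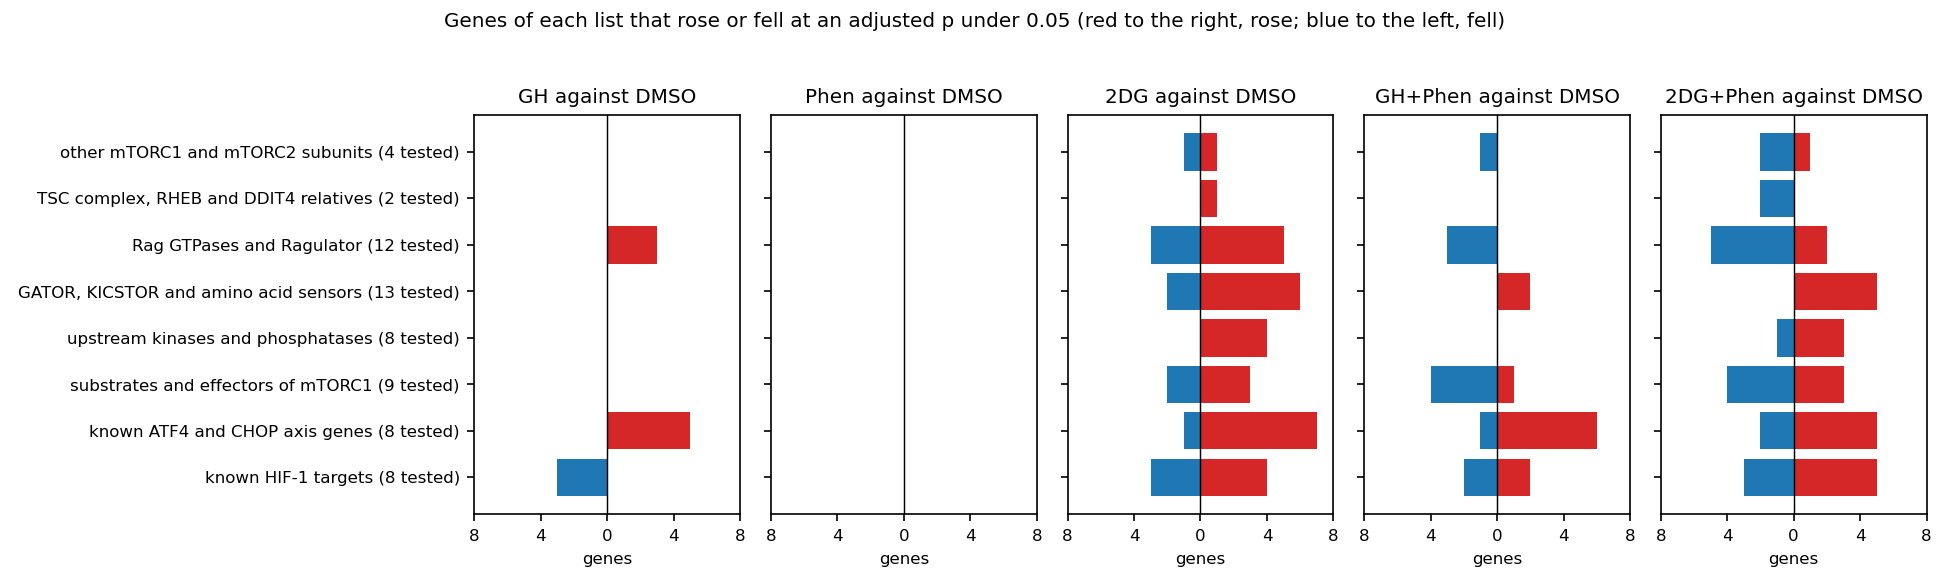
Number of genes (horizontal axes) of each list (vertical axis, with the number tested) that rose (red, right of 0) or fell (blue, left of 0) at an adjusted p under 0.05 against DMSO for each treatment, as deposited. The ATF4 and CHOP axis has 7 of 8 genes risen with 2DG and 6 with GH+Phen.

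Stress regulators known for DDIT4 and SESN2 were read from 2 further lists. Of the 8 genes of the ATF4 and CHOP axis, 7 rose and 1 fell with 2DG (6 and 0 after the GC correction), 6 rose and 1 fell with GH+Phen (6 and 1), 5 rose and 2 fell with 2DG+Phen (4 and 1), and 5 rose and 0 fell with GH (4 and 0). Of all genes 24.7%, 9.40%, 21.1% and 2.29% rose in these comparisons. ATF4 stood at a mean of 89.9 FPKM in DMSO, 177 in 2DG and 136 in 2DG+Phen, and DDIT3, which encodes CHOP, at 17.7, 99.3 and 45.9. CHAC1, a glutathione-degrading target of both factors, stood at 0.0886, 5.99 and 0.153. From 2DG to 2DG+Phen ATF4 fell by 0.38 (adjusted p = 5.0e-05), DDIT3 by 1.11 (adjusted p = 1.3e-07), ASNS by 0.51 (adjusted p = 2.2e-05) and CHAC1, with a log2 change of -4.58, by most (adjusted p = 2.5e-08), while PPP1R15A, the phosphatase subunit GADD34, named for going the other way, rose by 0.56 (adjusted p = 0.0081). Of the 8 genes of the axis 1 rose and 4 fell in this step, beside 3.53% and 7.69% of all genes, and the others were not called. After the GC correction the counts were again 1 and 4, beside 12.4% and 10.5%. Thus within the axis the step from 2DG to 2DG+Phen did not have 1 direction, and SESN2 fell, as ATF4, CHAC1, DDIT3 and ASNS did.

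The HIF-1 targets moved in both directions. Of the 8 tested, 4 rose and 3 fell with 2DG, and after the GC correction 1 rose and 4 fell, beside 24.7% and 30.3% of all genes before it and 23.3% and 20.9% after it. With 2DG+Phen 5 rose and 3 fell (4 and 2 after the correction). ADM rose by 1.76 with 2DG+Phen (standard error 0.10, adjusted p = 1.2e-08) and VEGFA by 0.76, while EGLN3 fell by 0.64 and ANKRD37 by 0.85. From 2DG to 2DG+Phen, the step in which DDIT4 fell, 2 of the 8 rose and 0 fell, beside 3.53% and 7.69% of all genes. The median change of the 8 in this step was -0.04. After the correction 2 rose and 1 fell, beside 12.4% and 10.5%. ADM rose by 1.46 in this step (adjusted p = 2.7e-07), while the mean of VEGFA went from 6.43 to 4.93 FPKM. These lists hold known targets and were chosen with earlier results of these libraries in view.

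The genes most like DDIT4 and SESN2 over the 18 libraries were found by the Pearson correlation of log2(FPKM + 0.1), given as a description, since the libraries share their treatment groups and their GC trend. For DDIT4 they were ZNF317 (r = 0.963), FOSL2 (0.951), VEGFA (0.948), SYNJ2 (0.941) and VPS37B (0.939). FOSL2 went from a mean of 13.8 FPKM in DMSO to 23.7 in 2DG and 18.3 in 2DG+Phen, the order of DDIT4, and was the only one of these 5 still among the first 5 after the GC correction (0.937), beside ZFP1, FEM1B, USP36 and GPCPD1. For SESN2 they were CHAC1 (0.957), NPC1 (0.948), OTUD7B (0.912), NRF1 (0.911) and STK40 (0.901). NPC1, the lysosomal cholesterol transporter, went from 26.0 FPKM in DMSO to 32.3 in 2DG and 25.6 in 2DG+Phen. After the GC correction the first 5 for SESN2 were SMC5 (0.95), BIN3, SRGAP1, ZNF84 and ZC3H12C, none of them in the list before it.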

How the data were processed

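RNA of T98G cells was sequenced from 18 strand-specific, poly(A)-selected libraries, 3 for each of 6 groups, which the labels name. Using CLC Genomics Workbench version 11, the authors aligned reads by strand to the GRCh38 genome (Ensembl release 89), and for 55128 genes they deposited an FPKM value in each library; mapped fragments per library, 18417756 to 22497604, were recovered from the steps of these FPKM values. Kept were 12108 genes that reached an FPKM of 0.5 in 3 or more libraries, and they were tested on log2(FPKM + 0.1) with limma version 3.58.1 (trend) in R version 4.3.3, in 1 model of 6 groups with 12 residual degrees of freedom and Benjamini-Hochberg adjustment over all genes tested. Fold changes on this scale understate the change of low genes. A gene rose or fell at an adjusted p under 0.05. Standard errors and p-values measure the spread between these libraries, labelled as biological replicates. The GC and length correction used GENCODE 44 transcripts for the 12022 genes with a value and removed from each library a spline on GC content (5 degrees of freedom) and length (4). Alternatives were other pseudocounts (0.01 and 1), filters, scalings and fits, the replicate block and leaving out libraries. The fit was also run on simulated counts, which had no GC slope and no replicate effect, so that run cannot speak to either. The members and the gene lists were chosen with earlier results of these data known. Named are all 10 genes, from each list up to 4 genes, by smallest adjusted p, and the 5 genes most correlated with DDIT4 and with SESN2. Some genes and 1 gene list are not reported here. Promoter windows came from RefSeq. Tables and figures were made in Python version 3.11.15.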

Additional observations from a re-analysis of the deposited data

Results flagged for a closer look

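For 2 of the 9 genes tested, the effect of an agent differed between cells without and with Phen, by a test of the interaction. DDIT4 gave an interaction of GH and Phen of 1.03 on the log2 scale (standard error 0.16, adjusted p = 0.0019, limma), with a lower level in GH than in DMSO in 3 of 3 libraries and a higher level in GH+Phen than in Phen in 3 of 3 as deposited, where the change was -0.015 after the GC and length correction (adjusted p = 0.90). SESN2 gave an interaction of 2DG and Phen of -1.85 (standard error 0.24, adjusted p = 0.00033), with a rise by 1.80 from DMSO to 2DG and a change of -0.04 from Phen to 2DG+Phen, which was -0.71 after the correction (adjusted p = 1.1e-06). After the correction the interactions were 0.56 for DDIT4 and -1.93 for SESN2.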

How the results depend on the processing

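Over the 9 genes tested and the 12 comparisons, 108 values were recomputed under 31 alternatives, and of the 3348 resulting values 3135 kept direction and side of the threshold, 114 lost a call, 76 gained one and 23 reversed. Both pseudocounts and the stricter filter changed no direction and no call among their 324 values. The counts of called genes that moved by over 1.5 times were as follows. With the GC and length correction, GH against DMSO had 3 calls in place of 1, 2DG against DMSO 5 in place of 8, 2DG+Phen against DMSO 8 in place of 5, and the interactions of Phen with GH and with 2DG had 2 and 3 in place of 1 each. With only the groups compared in the fit, the counts were 0 for GH, 4 for 2DG and 1 for GH+Phen against DMSO, 0 for GH+Phen against GH, 3 for GH+Phen against Phen, 1 for GH+Phen against 2DG+Phen and 2 for the interaction of 2DG and Phen. Without a filter GH had 0, and with quantile normalization GH had 2 and 2DG+Phen against 2DG had 2. Without both DMSO C and GH+Phen A, the counts were 4 for GH and 9 for GH+Phen against DMSO, 7 for GH+Phen against GH, 9 for GH+Phen against Phen, and 3 and 2 for the interactions of Phen with GH and with 2DG. Apart from the GC and length correction against DMSO, the shares of all genes called in these fits are not given here. The counts are therefore no result about these genes, and the cause of these moves was not tested.

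Same-letter libraries of different groups deviated together in 29 of 45 pairs (r over 0.1, range -0.43 to 0.59), and in 20 of 45 after the correction, against 21 and 10 of 90 pairs with different letters. Not every same-letter pair passed 0.1, the bar set for pairing, so the fit without the block was kept, and the higher share among same letters is a hint of shared variation. With a replicate block GH against DMSO had 2 calls, Phen against DMSO 1 and the interaction of 2DG and Phen 2. With the replicate block and the GC correction together the counts were 3 for GH, 5 for 2DG, 5 for GH+Phen and 8 for 2DG+Phen against DMSO, and 2 and 3 for the interactions of Phen with GH and with 2DG. For the fits with a block, too, the shares of all genes are not given, and the counts are no result about these genes.

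Leaving out 1 library at a time gave 0 to 2 calls for GH, 0 to 1 for Phen, 4 to 8 for 2DG, 3 to 7 for GH+Phen and 4 to 6 for 2DG+Phen against DMSO, 2 to 4 for GH+Phen against GH, 3 to 9 against Phen, 4 to 4 for 2DG+Phen against 2DG, 5 to 7 against Phen, 2 to 3 for GH+Phen against 2DG+Phen, and 1 to 5 and 1 to 2 for the interactions of Phen with GH and with 2DG. The highest counts for GH+Phen came without GH+Phen A. The shares of all genes called in these fits are not given here, so the counts are no result about these genes.

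The reversals came with the GC and length correction, with and without the replicate block. They were AKT1S1 at -0.25 for 2DG, -0.34 for GH+Phen and -0.43 for 2DG+Phen against DMSO, at -0.41 and -0.50 for GH+Phen and 2DG+Phen against Phen and at -0.37 for the interaction of GH and Phen, and RPTOR at -0.10 for 2DG and -0.14 for 2DG+Phen against DMSO and at -0.16 and -0.19 for GH+Phen and 2DG+Phen against Phen. DDIT4 was at -0.015 for GH+Phen against Phen, and at -0.17 for GH+Phen against DMSO with the block. Depth limited SESN3, with 23 to 56 fragments a library.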
